A study of Mus musculus with 9 samples.

Results

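The comparison described here set Usp22-KOA tumor cells against wild type (WT) tumor cells, gene by gene. Its members were the genes whose TPM averaged 1 or more across the 3 WT and 3 Usp22-KOA samples, 13819 of the 24493 genes of the table, and the samples of the other knockout were left out. All 6 samples were mouse pancreatic tumor cells of the C57BL/6 strain and of 1 clone, 6419c5, described as late stage and taken from tumors that grew after implantation under the skin. The WT and Usp22-KOA samples carried the genotypes WT and knockout of Usp22. The samples thus derive from 1 clone. What A stands for, how the knockout was made and how tumor cells were parted from other cells of the tumor the labels leave unsaid. The labels do not say that the samples came from separate mice, so p-values reflect nothing beyond the scatter of these 6 samples, which may be technical.

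Usp22 is the ubiquitin protease of SAGA, a large coactivator complex that acetylates histones and removes ubiquitin from histone H2B at transcribed genes. Pancreatic ductal tumor cells of this kind normally keep parts of a ductal and gastric-type epithelial program, with junction proteins, mucins and trefoil factors. Interferon-gamma acts through a JAK kinase cascade and IRF1 on guanylate-binding proteins, immunity-related GTPases, chemokines and the machinery that presents peptides on MHC class I. A tumor also holds immune, vascular and connective tissue cells, and in bulk RNA fewer cells of a type and less RNA per cell cannot be told apart.

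Values are in TPM (transcripts per 1000000), which adjusts for transcript length and gives each library the same total. Differences are Usp22-KOA minus WT on the scale log2(TPM + 1), given ± SE, which understates changes of low genes. A gene is said to rise or fall where limma's Benjamini-Hochberg adjusted p was under 0.05, and "adjusted p" below is always that value. Read depth cannot be recovered from TPM and is unknown, and precision rests on 3 samples per group. Correlations across genes were 0.975 to 0.985 within the groups and 0.883 to 0.893 between them (Pearson's r of log2(TPM + 1), a description).

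Certain libraries stood apart within their group. In Usp22-KOA replicate 3, 149 genes lay more than 2-fold below both other Usp22-KOA samples, against 55 in replicate 1 and 49 in replicate 2. Its summed mast cell, T cell, NK cell and macrophage markers were the lowest of its group, and limma's array weight for this library was 0.483, the lowest of the 6. WT replicate 2 held the most MHC class II RNA of the WT samples and WT replicate 3 the most collagen RNA. Results that rest most on these libraries are given with and without them.

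Usp22 (chromosome 11, 61151785 to 61175055 in GRCm38, protein coding) stood at 55.1, 54.5 and 56.4 TPM in WT and at 9.77, 8.46 and 10.1 TPM in Usp22-KOA. All 3 Usp22-KOA samples lay far below all 3 WT samples. The mean fell from 55.3 ± 0.977 to 9.44 ± 0.867 TPM (SD, n = 3 each), a log2 difference of -2.44 ± 0.08 (adjusted p = 2.6e-06). By an exact permutation test (two-sided) p was 0.1, the smallest that 3 samples against 3 allow. Among its partners in the deubiquitinase module Eny2 (-0.65 ± 0.07) and Atxn7l2 (-0.89 ± 0.12) fell and the scaffold Atxn7l3 (0.39 ± 0.06) rose, while the acetyltransferase Kat2b, of another SAGA module, rose from 20.1, 19.3 and 17 to 35.8, 36.2 and 43.5 TPM.

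Over all 13819 genes, 7938 differed (57.4%), with 4196 higher (30.4%) and 3742 lower (27.1%). Of the calls, 834 (6.04% of genes tested) were rises of 2-fold or more and 1185 (8.58%) were falls of that size. With a pseudocount of 5 these counts were 481 and 607, and among genes averaging 5 TPM or more they were 643 and 697. At 8-fold or more the counts were 87 and 153. The median log2 difference was 0.02, with quartiles of -0.37 and 0.36. More genes thus rose by a small step, and more fell by a large one. The excess of rises in total depended on the filter and on the scaling. Without a filter, 4221 genes were higher and 4383 lower, with a median of -0.025. Rescaled without the microRNA annotation Mir6236, the feature with the most TPM, 4025 genes were higher and 3942 lower, with a median of -0.00037. Without WT replicate 3 the median was -0.005. The values of both groups did not overlap for 9052 genes (65.5%), with Usp22-KOA above in 34.4% and below in 31.1%. With most genes called, counts of calls in a gene list have to be read against these shares.

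**Figure D1:**
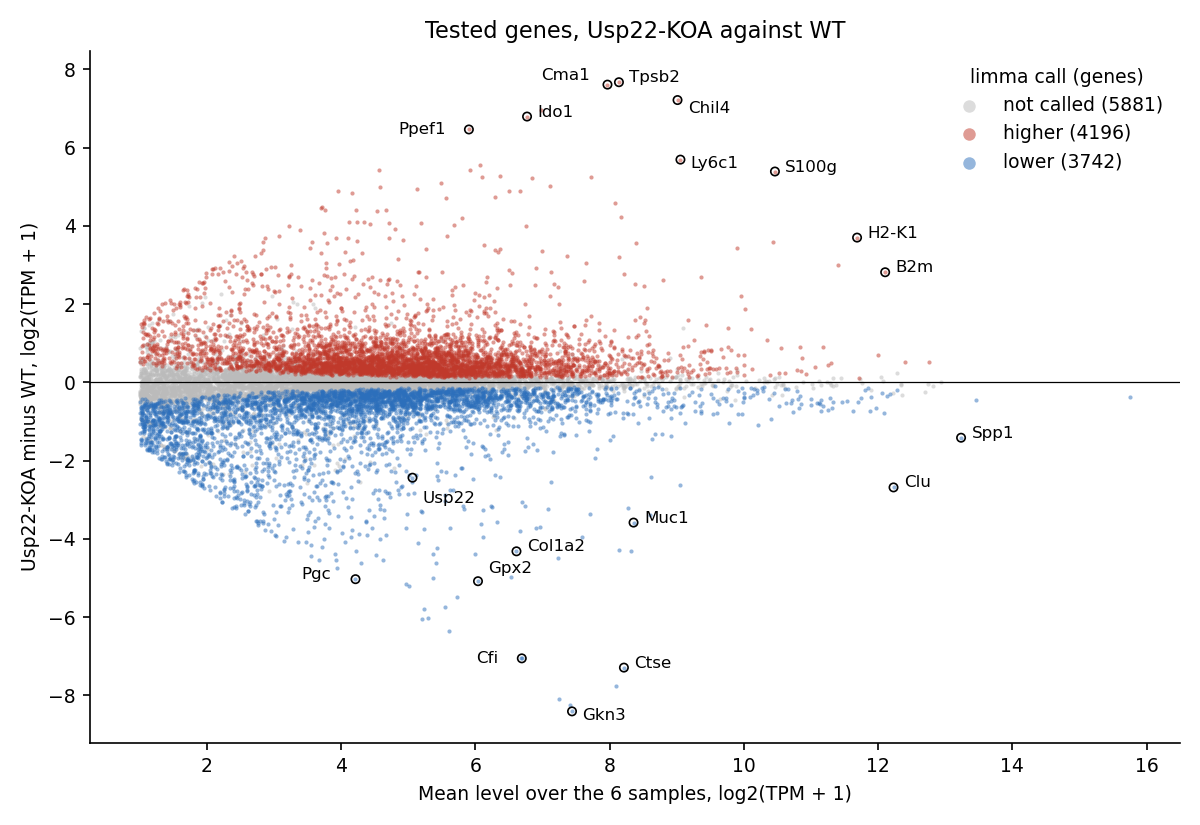
Each point is 1 of the 13819 tested genes, with its mean level over the 6 samples on the x axis and the Usp22-KOA minus WT difference on the y axis, both on the log2(TPM + 1) scale. Red and blue mark the 4196 genes called higher and the 3742 called lower by limma, and circles name genes of the text. Mast cell proteases and Ido1 lie at the top, gastrokines and Ctse at the bottom.

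The largest rises joined mast cell, interferon-responsive and secreted or surface protein genes. Ppef1, a protein phosphatase with EF-hand domains, stood at 0.603, 0.359 and 0.0923 TPM in WT and 108, 119 and 125 TPM in Usp22-KOA (6.47 ± 0.15, adjusted p = 7.6e-07). Serpina7, the thyroxine-binding globulin, stood at 1.92, 1.45 and 1.83 and 119.5, 129.8 and 102 TPM (5.43 ± 0.11). Mug1, a protease inhibitor of the alpha-2-macroglobulin family, went from near 0 (0.0605, 0.0363 and 0.0925 TPM) to 41.8, 40.6 and 53.5 TPM. These 3 genes were low in WT, with Serpina7 above 1 TPM there, and even across the Usp22-KOA samples.

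S100g, a calcium-binding protein of absorptive epithelium, rose from 62.7, 56.4 and 76 to 2636, 2638 and 2989.6 TPM (5.39 ± 0.11). The Ly6 family surface protein Ly6c1 rose from 21.4, 15.4 and 21.1 to 1009.9, 1065 and 1051 TPM and its relative Ly6a from 161, 163 and 159 to 1673, 1745 and 1817 TPM. Slurp1, a secreted Ly6-like protein, rose by 5.09 ± 0.24, and the cornified envelope gene Sprr2a2 from 223, 209.9 and 196 to 2754, 2537 and 2380.3 TPM. Of the 16 tested Ly6, Sprr and S100 genes 9 rose and 3 fell, with a median of 0.30, against 0.02 for all genes. The list did not move as one: S100a14, an epithelial S100 protein, fell by 2.84 on the log2 scale, and S100a6, the most abundant member, stood at 7374, 7330.4 and 7574 and 6611, 6675 and 7778 TPM with overlapping groups. Prl2c3, a prolactin-family hormone gene known from placenta, rose from 12.2, 7.24 and 10.4 to 401, 513 and 323 TPM. Genes of the Ly6, Sprr, Prl2c and Mug families have close relatives between which reads can be divided, so their single values are uncertain.

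The gastrokine genes Gkn3 (-8.41), Gkn1 (-8.25) and Gkn2 (-8.10) and the secreted lectin gene Reg1 (-7.77) had the largest falls. Gkn3, a gastrokine, stood at 412, 362 and 260.5 TPM in WT and was listed at 0 in each Usp22-KOA library. The size of its fall, and so its rank, depends on the pseudocount. Ctse, the aspartic protease cathepsin E of gastric surface cells, stood at 573, 602 and 589.9 and 3.83, 2.56 and 2.1 TPM (-7.29 ± 0.15, adjusted p = 6e-07). Cfi, the serine protease complement factor I, stood at 198, 218 and 196 and 0.467, 1.09 and 0.196 TPM (-7.05 ± 0.19). No Usp22-KOA sample of these 3 genes came near the lowest WT sample.

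Tm4sf5, a tetraspan membrane protein of epithelia, fell from 199, 211 and 199 to 0.245, 0.358 and 1.16 TPM, and Gabrp, the pi subunit of the GABA-A receptor, from 87.3, 115 and 84 to 0.139, 0.242 and 0.117 TPM. Pamr1 and Scara3, a secreted protease-like protein and a scavenger receptor, fell by 6.05 and 6.03 on the log2 scale. Mal2, a protein of apical transport, and the proton channel Otop3 fell by 5.15 and 5.22. All of these kept less than 3 TPM in every Usp22-KOA sample.

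Of genes listed at 0 in all samples of 1 group and at 5 TPM or more in all samples of the other, 6 had values in Usp22-KOA and 7 in WT. Stfa3, a stefin that inhibits cysteine proteases, stood at 29.6, 29 and 28.1 TPM in Usp22-KOA and was listed at 0 in each WT library. Gbp10, Serpinb12, Prl7a2, Amy2a5 and Vmn2r2 made up the rest of that set, at 5.44, 6.19 and 8.3 TPM for Gbp10. Conversely the growth factor receptor Fgfr4 (16.8, 17.8 and 12.7 TPM in WT), the cholinesterase Bche (13.9, 14.3 and 14.6 TPM), Mmp7, an epithelial metalloproteinase (6.47, 6.06 and 13.9 TPM), Spp2, Serpina1c, Cdh10 and Gkn3 were listed at 0 in each Usp22-KOA library. No ratio of TPM is given for these 13 genes, since TPM sets no limit on a value of 0. The -8.41 of Gkn3 is a difference in log2(TPM + 1) and depends on the pseudocount.

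In absolute terms B2m gained the most, from 1026, 1436 and 881 to 7449, 7646 and 7981 TPM, followed by H2-K1 (416, 688 and 357 to 6165, 5768 and 6370.5 TPM) and H2-D1. The actin-binding thymosins Tmsb10 (0.52 ± 0.04) and Tmsb4x (0.51 ± 0.04), the LIM protein Crip1 (0.71 ± 0.09) and the intermediate filament protein vimentin (Vim, 0.90 ± 0.06) were also among the 10 largest gains. The largest loss was the microRNA annotation Mir6236, from 65608, 53583 and 68474 to 46629, 51856 and 45979.6 TPM. Among protein-coding genes it was Spp1 (osteopontin), from 13982, 13693 and 14396 to 5339, 5467 and 4991 TPM, and the next Clu (clusterin, a secreted chaperone), from 8307, 8293 and 8307 to 1299.6, 1463 and 1133 TPM. The next 8 losses were genes of ribosomal proteins (Rps27rt, Rplp2, Rpl28, Rps28, Rps14, Rpl38, Rps29 and Rps16). Summed, the listed cytosolic ribosomal proteins came to 97309.7, 102327 and 102640.0 TPM in WT and 84004, 84421 and 83387 TPM in Usp22-KOA.

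**Figure D2:**
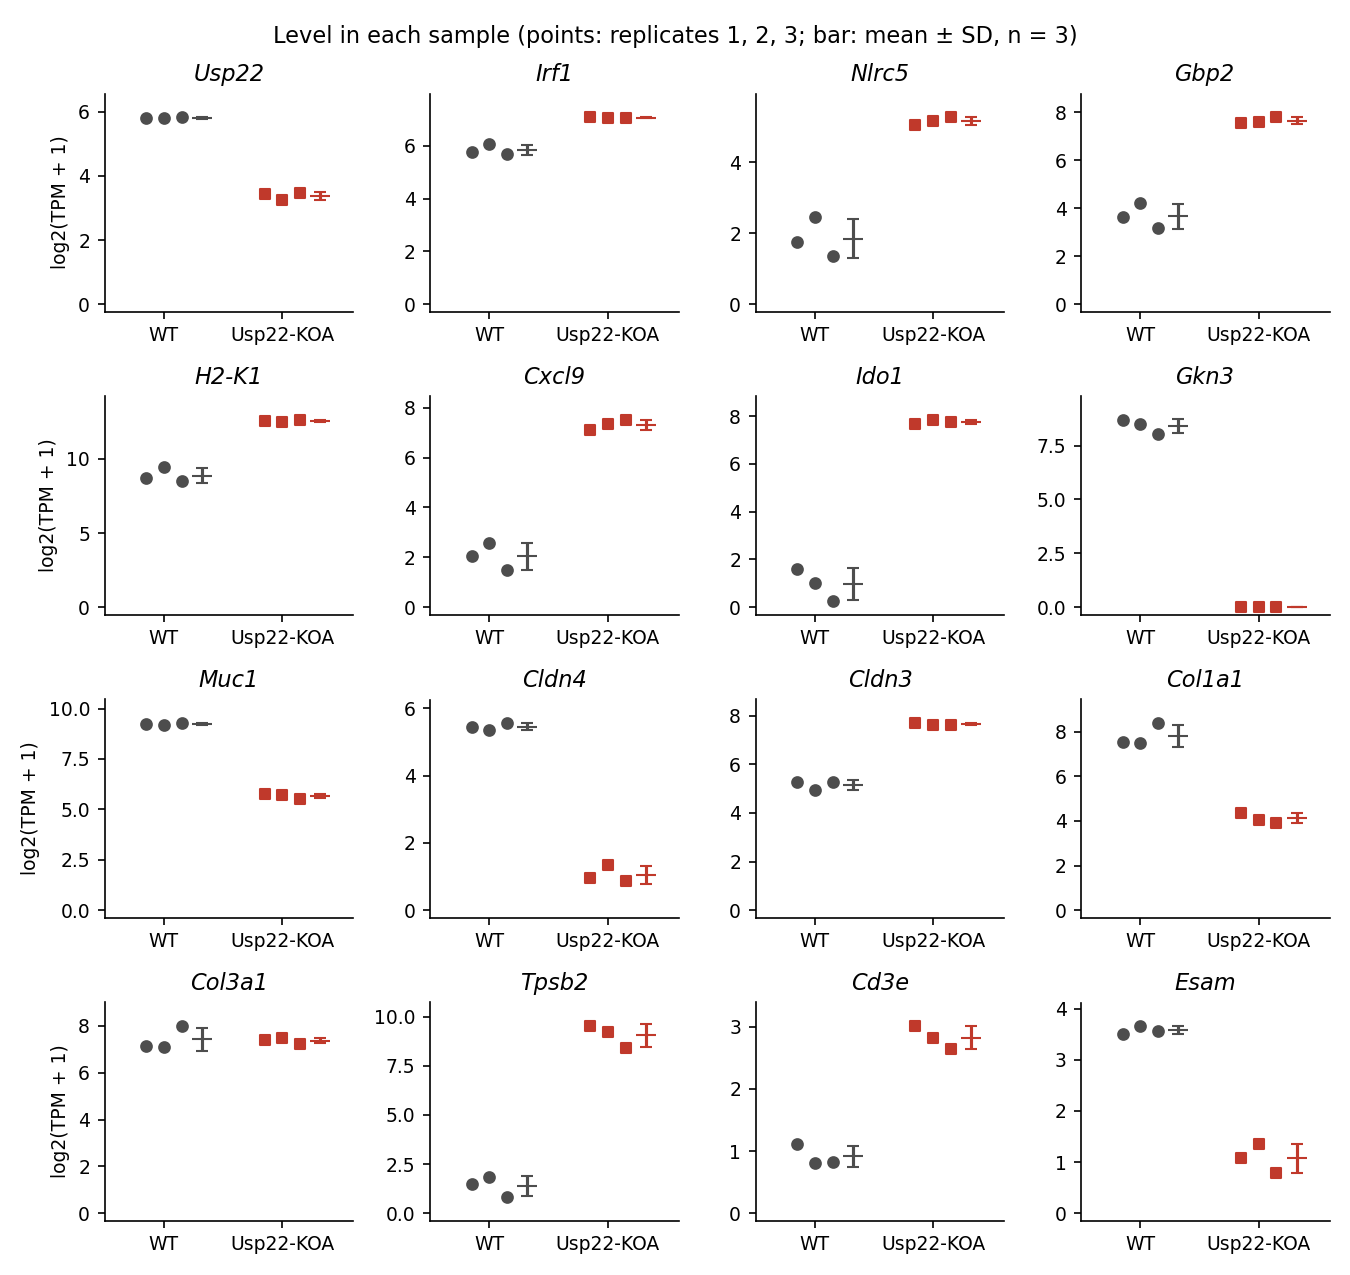
Points are log2(TPM + 1) of 16 genes in each WT (grey) and Usp22-KOA (red) sample, in the order of the replicates, with the mean and SD (n = 3) beside them. For Col3a1 the groups overlap and for the other 15 genes they do not. Tpsb2 and Cd3e are lowest, among Usp22-KOA samples, in replicate 3.

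Interferon-responsive GTPases rose as whole families: of 9 tested guanylate-binding proteins 9 rose (median 2.92) and of 8 p47 immunity-related GTPases 8 rose (median 3.02). Both families act against intracellular pathogens and are induced mainly by interferon-gamma. Gbp2, the most abundant guanylate-binding protein here, stood at 11.4, 17.4 and 7.92 TPM in WT and 185, 194 and 223 TPM in Usp22-KOA (3.99 ± 0.25, adjusted p = 2.8e-05). Igtp stood at 12.8, 18.3 and 10.3 and 140.2, 145 and 151 TPM (3.34 ± 0.18), and Irgm2 at 9.13, 11.7 and 7.3 and 56.8, 67.6 and 72.5 TPM (2.70 ± 0.17). The groups did not overlap for any of the 17 genes, and among the WT samples replicate 2 was highest for each of these 3. Tgtp1 and Tgtp2 are near-identical copies whose reads can be divided, and both rose (4.73 and 5.25).

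Promoter sequences are shown for 4 genes that rose, Igtp, Irgm2, Gbp2 and B2m, because interferon factors are known to bind short elements next to the start of such genes. Each line gives the 250 bases before the RefSeq start in GRCm38.p6, read in the direction of the gene, which is the plus strand for all 4. Capitals mark matches to the core of the interferon-stimulated response element (GAAA, 2 bases of any kind, GAAA) and to the core of the gamma-activated site, TTCNNNGAA. Both strands were searched, overlaps were allowed, and in Gbp2 the element stands on the other strand.
Igtp (chr11:58199306-58199555): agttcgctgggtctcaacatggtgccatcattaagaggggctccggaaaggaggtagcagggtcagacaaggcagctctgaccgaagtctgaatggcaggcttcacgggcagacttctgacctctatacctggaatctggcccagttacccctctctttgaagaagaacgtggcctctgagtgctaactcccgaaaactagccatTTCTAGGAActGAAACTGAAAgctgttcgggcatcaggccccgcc
Irgm2 (chr11:58214727-58214976): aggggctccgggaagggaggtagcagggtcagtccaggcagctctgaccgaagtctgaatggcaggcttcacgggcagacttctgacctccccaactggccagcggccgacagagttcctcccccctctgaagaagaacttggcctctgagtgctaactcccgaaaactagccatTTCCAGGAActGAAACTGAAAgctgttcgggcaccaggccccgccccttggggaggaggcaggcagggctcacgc
Gbp2 (chr3:142620413-142620662): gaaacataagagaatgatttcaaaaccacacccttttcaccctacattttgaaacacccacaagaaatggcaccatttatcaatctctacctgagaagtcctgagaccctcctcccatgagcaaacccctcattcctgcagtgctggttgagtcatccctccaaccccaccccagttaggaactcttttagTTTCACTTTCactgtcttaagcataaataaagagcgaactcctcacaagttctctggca
B2m (chr2:122147437-122147686): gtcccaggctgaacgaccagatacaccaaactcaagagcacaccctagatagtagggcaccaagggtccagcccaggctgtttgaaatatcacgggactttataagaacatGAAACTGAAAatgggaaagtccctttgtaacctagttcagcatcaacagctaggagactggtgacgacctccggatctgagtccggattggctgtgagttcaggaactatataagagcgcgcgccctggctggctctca

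In Igtp and Irgm2 a gamma-activated core begins 11 bases before the response element, which starts 34 and 64 bases before the transcript start. The same distance of 11 bases separated both matches in Tgtp1 and Tgtp2. The windows of Igtp and Irgm2 are near-identical around these matches, and those of Tgtp1 and Tgtp2 are also alike there. The matches of related genes are therefore not independent. Gbp5 and Bst2 also held both, at other distances. Of the GTPase genes, 11 had a promoter in the RefSeq table, of which 10 held the response element core and 6 the gamma-activated core, against 3.46% and 8.13% of all 27025 genes of that table. The response element core was found in 8 of 23 antiviral genes and in 3 of 20 genes of MHC class I presentation, B2m among them. The window of Cxcl9 held neither. A match is a description of letters and not a bound site, and binding was not measured.

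The signalling genes above these targets rose too. Of 13 kinases and transcription factors of interferon signalling 9 rose and 1 fell (median 0.65). Nlrc5, the transactivator of MHC class I genes, stood at 2.37, 4.46 and 1.55 TPM in WT and 32, 34.8 and 37.8 TPM in Usp22-KOA (3.31 ± 0.26). Irf1, a transcription factor of the interferon response, stood at 53.5, 66.6 and 51.2 and 136, 132 and 132 TPM (1.22 ± 0.10). The groups did not overlap in either gene. Both chains of the interferon-gamma receptor rose, Ifngr2 from 156, 146 and 145 to 273, 261 and 291 TPM and Ifngr1 by 0.31 ± 0.06, while the kinase Jak2 was the 1 that fell. The ligand Ifng itself was near 0 in WT (0, 0.0844 and 0 TPM) and low in Usp22-KOA (2.45, 2.3 and 1.62 TPM). Feedback inhibitors were mixed: Usp18, which blocks type I signalling, rose by 2.31 ± 0.12 and Socs1 by 1.10 ± 0.17, Ptpn2 fell, and Socs3 stood at 91, 94 and 91.2 and 107, 96.3 and 73.9 TPM with overlapping groups.

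Of 27 antiviral effectors 23 rose and 1 fell (median 1.06), and of 8 nucleic acid sensors 8 rose (median 0.99). The tetherin Bst2 stood at 205, 224 and 189 TPM in WT and 509, 464 and 470.3 TPM in Usp22-KOA. Zbp1, a sensor of Z-form nucleic acid, rose by 2.50 ± 0.17, and the adaptor Tmem173 (STING) by 1.77 ± 0.09. Ifitm2, which blocks viral entry and was the most abundant effector, was the exception and fell from 1081, 1174 and 1124 to 920.0, 964 and 897 TPM. The classical type I responders Mx1 (1.04) and Ifit1 (0.78) rose less on the log2 scale than Gbp2 or Igtp did, a difference between genes that was not tested. In inflammatory cell death 8 of 16 genes rose and 5 fell, against 30.4% and 27.1% of all genes. Casp4, a caspase that senses bacterial lipopolysaccharide, rose by 1.63 ± 0.07 and the necroptosis effector Mlkl by 1.10 ± 0.08, whereas Gsdmd (-0.25) and Il18 (-1.79) fell.

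For MHC class I, 8 of 9 chains rose (median 2.82), 7 of 8 genes of peptide loading (median 1.10) and 5 of 5 of the immunoproteasome (median 1.45). Summed over the chains, the level was 2186, 3184 and 1897 TPM in WT and 20011, 19371 and 20807 TPM in Usp22-KOA. B2m, the light chain, rose by 2.82 ± 0.17 and H2-K1 by 3.70 ± 0.23 (adjusted p = 2.7e-05). The peptide transporter Tap1 stood at 10.7, 21 and 9.76 and 149, 149 and 151 TPM, with WT replicate 2 above the other WT samples and the Usp22-KOA samples nearly alike. The immunoproteasome subunit Psmb8 rose from 46.6, 85.8 and 38.6 to 508, 497 and 502 TPM. H2-Q6, listed at 0 in all but WT replicate 2, and Canx (calnexin) did not pass. Reads of H2 chains can be divided between relatives, so the sum is firmer than any single chain.

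For MHC class II, 6 of 7 chain and loading genes rose (median 1.68), as did the transactivator Ciita (2.76, 4.43 and 1.16 and 7.72, 8.06 and 8.93 TPM). H2-Aa stood at 173, 285 and 83.4 TPM in WT and 529.9, 509 and 505 TPM in Usp22-KOA, and Cd74, the invariant chain, at 456, 850.2 and 252 and 1298, 1192 and 1146 TPM. The WT samples were spread widely, with replicate 2 highest, and the Usp22-KOA samples were close together. Without WT replicate 2 the list's median was 2.09.

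Ligands that meet T and NK cells moved both ways: 9 of 19 rose and 4 fell (median 0.55). Among all genes 30.4% rose and 27.1% fell. Ido1, which breaks down tryptophan, stood at 2.05, 1 and 0.198 TPM in WT and 204, 229 and 212 TPM in Usp22-KOA (6.80 ± 0.31). Cd47, which restrains phagocytes, rose from 174, 163 and 167 to 319, 357 and 379 TPM, Lgals9 by 0.82 ± 0.05 and Cd274 (PD-L1) by 0.67. Vtcn1 (B7-H4, an inhibitor of T cells) fell from 16, 15.5 and 15.6 to 0.644, 0.518 and 0.937 TPM and Nectin2, a cell adhesion protein that NK cells can recognise, by 1.77 on the log2 scale.

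Among 13 CXC chemokines 4 rose and 4 fell, near the shares of all genes (30.4% and 27.1%). Those that rose included the CXCR3 ligands Cxcl9 (3.19, 4.9 and 1.8 and 137, 161 and 182 TPM), Cxcl10 (9.81, 13.5 and 8.23 and 119, 134 and 129 TPM) and Cxcl11. The CXCR6 ligand Cxcl16 fell from 147, 154 and 147 to 73.5, 78.2 and 69.5 TPM, and the neutrophil attractant Cxcl5 did not pass (-0.22 ± 0.10, adjusted p = 0.12). Of 15 CC chemokines 3 rose and 1 fell, and 7 rose without Usp22-KOA replicate 3 but 1 without WT replicate 1, WT replicate 3, Usp22-KOA replicate 1 or Usp22-KOA replicate 2. Ccl8, the most abundant, stood at 172, 574 and 206 and 1073, 859 and 396 TPM, with WT replicate 2 above Usp22-KOA replicate 3. Of 18 cytokines and growth factors 5 rose and 10 fell. Kitl, the ligand of the mast cell receptor Kit, rose by 0.86 and Il15 by 0.42, while the endothelial growth factor Vegfa fell from 245, 211 and 230.1 to 85.9, 84.9 and 97.4 TPM and Il1a from 15.2, 14.7 and 16.5 to 2.23, 3.56 and 1.82 TPM.

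Markers of other cell types moved with these groups, and their part in the results above was not tested. Mast cell genes rose the most. Cpa3 (carboxypeptidase A3) rose by 6.96 ± 0.44. Tpsb2 (tryptase) stood at 1.77, 2.62 and 0.768 TPM in WT and 741, 601 and 337 TPM in Usp22-KOA (7.67 ± 0.35), Cma1 (chymase) at 1.32, 2.42 and 0.851 and 654, 506 and 331 TPM, and the receptor chain Fcer1a at 0.240, 0.524 and 0.463 and 59.1, 47.7 and 29.3 TPM. Usp22-KOA replicate 3 was the lowest of its group for all 3, and still above every WT sample. Of 13 mast cell receptors and mediators 11 rose (median 2.58, and 2.84 without Usp22-KOA replicate 3), among them Kit, Gata2 and Ms4a2.

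Mast cell proteases did not all follow: of 8 tested 6 rose, but Mcpt1 (137, 117 and 107 TPM in WT, and 45.3, 52.1 and 4.3 TPM in Usp22-KOA) and Mcpt2 (346, 361 and 292 TPM, and 145, 137 and 31.7 TPM) fell. These chymases are known from mast cells of mucosal surfaces, while Cma1 and Mcpt4 are known from those of connective tissue. Without Usp22-KOA replicate 3 they fell by 1.28 and 1.23 on the log2 scale. With any 1 of the WT replicates left out, 0 proteases passed as lower. In WT the summed mast cell proteases of 546 to 664 TPM were mostly Mcpt1, Mcpt2 and Mcpt4, while Kit (0.723, 0.518 and 0.759 TPM) and Fcer1a were near 0. The basophil protease Mcpt8 fell from 46.9, 49.8 and 37.5 to 5.51, 4.5 and 6.29 TPM.

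Of 13 tested T cell markers 11 rose (median 1.24) and of 9 NK and cytotoxic markers 9 rose (median 2.03). Without Usp22-KOA replicate 3 the medians were 1.35 and 2.49. Their levels were low. Markers near 0 in WT could pass the filter of 1 TPM through Usp22-KOA alone, so these counts lean towards rises. Cd3e, part of the CD3 complex that signals for the T cell receptor, stood at 1.15, 0.749 and 0.769 TPM in WT and 7.07, 6.08 and 5.21 TPM in Usp22-KOA. Gzmb, a cytotoxic granule protease, stood at 0.794, 1.28 and 0.222 and 30.9, 23.1 and 7.39 TPM. Summed over tested and untested members, T cell markers came to 22.2, 23.3 and 12.9 TPM in WT and 81.3, 64 and 46.7 TPM in Usp22-KOA. By the same sum NK and cytotoxic markers came to 4.86, 7.84 and 3.03 TPM in WT and 99.2, 70.7 and 35.4 TPM in Usp22-KOA. The groups did not overlap in either sum, and Usp22-KOA replicate 3 was again lowest of its group. Cd5, Cd6, Icos and Foxp3 had means under 1 TPM. At a minimum mean of 5 TPM no T cell marker and 2 NK markers were left.

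General leukocyte and macrophage markers did not show this. Of 15 pan-leukocyte markers 4 rose (median 0.50) and of 20 macrophage and monocyte markers 2 rose and 1 fell (median 0.12). Over all genes 30.4% rose and 27.1% fell. Summed macrophage markers were 3908, 6032 and 4180.4 TPM in WT and 6469.7, 5393 and 2784 TPM in Usp22-KOA, so the groups overlapped. Without Usp22-KOA replicate 3, 12 pan-leukocyte and 8 macrophage markers rose, and without WT replicate 3 or Usp22-KOA replicate 2, 2 pan-leukocyte markers rose. Ly6c2 and Ly6g, which are read as monocyte and neutrophil markers, rose by 3.70 and 3.60. Of 8 tested neutrophil markers Ly6g was the 1 that rose and Ltf the 1 that fell (-4.08), and S100a8 did not pass (0.63 ± 0.33). Summed B and plasma cell markers were 14, 15.8 and 4.32 TPM in WT and 14.6, 18.8 and 11.5 TPM in Usp22-KOA, mostly Jchain, and Cd79a, Ms4a1 and Pax5 had means under 1 TPM. Chil4, a chitinase-like secreted protein, stood at 1.95, 0.384 and 2.02 TPM in WT and at 1062, 2004 and 18.1 TPM in Usp22-KOA, with replicate 3 far below the other Usp22-KOA samples. Its difference was 7.22 ± 1.65, and 9.30 without that replicate.

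**Figure D3:**
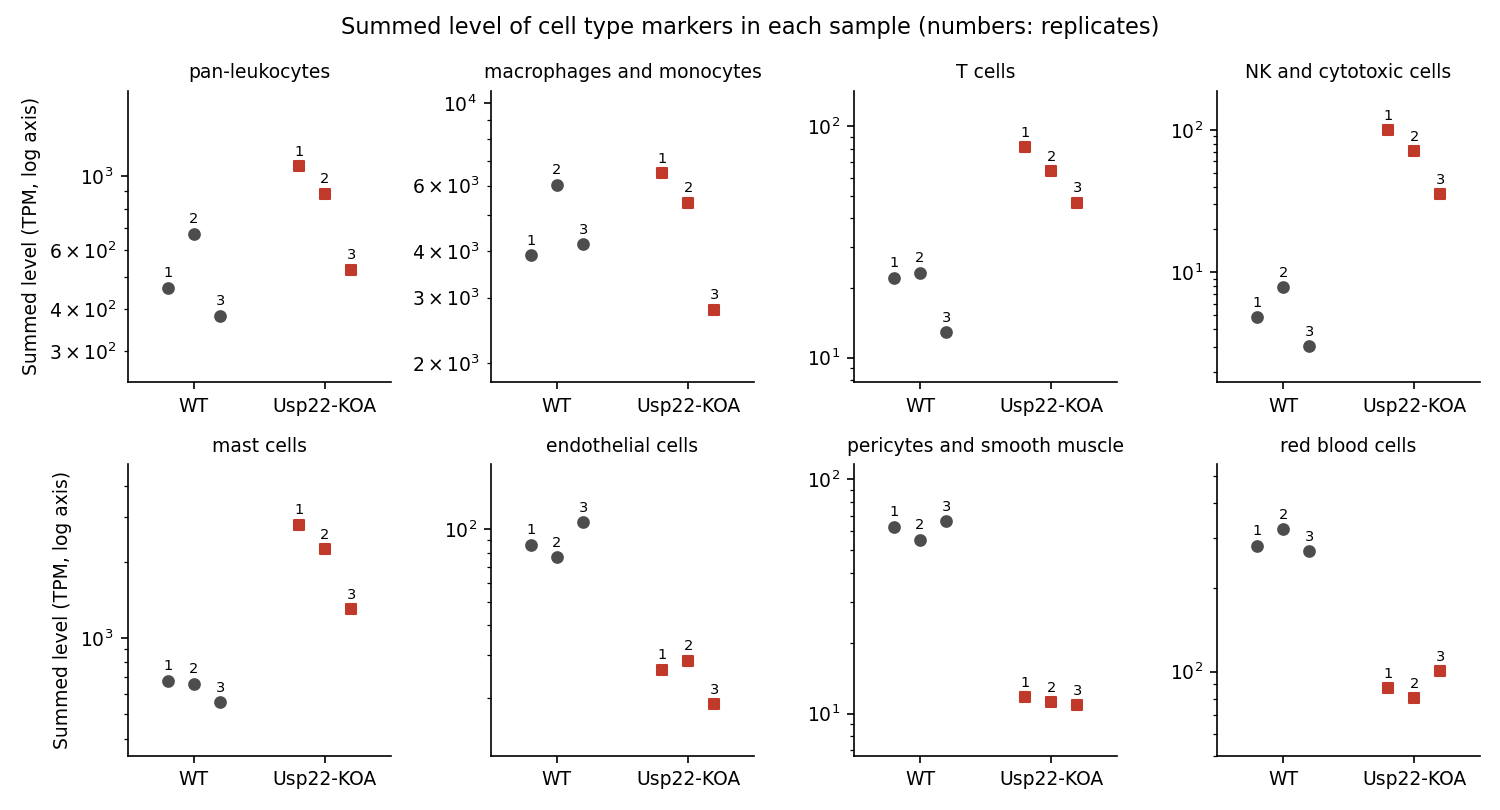
Each point is the summed TPM of 1 marker list in 1 sample, on a log axis, for 8 cell types, with the replicate number above it. T cell, NK and mast cell sums lie higher in all 3 Usp22-KOA samples, endothelial, pericyte and red blood cell sums lie lower, and pan-leukocyte and macrophage sums overlap.

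Vascular genes were lower. Of 12 endothelial markers 11 fell and 0 rose (median -1.28, and -1.24 without Usp22-KOA replicate 3). Esam, an adhesion molecule of endothelial junctions, stood at 10.3, 11.7 and 10.9 TPM in WT and 1.12, 1.55 and 0.728 TPM in Usp22-KOA, and Plvap, of fenestrated endothelium, at 17.5, 15.8 and 23.7 and 3.29, 3.51 and 1.88 TPM. The groups did not overlap in either gene. Of 5 tested pericyte and smooth muscle markers 4 fell, with Rgs5 at 11.7, 8.02 and 8.02 and 0.591, 0.423 and 1.08 TPM. Summed over all 10 listed, tested or not, the level was 62.8, 55.2 and 66.4 TPM in WT and 11.8, 11.2 and 10.8 TPM in Usp22-KOA. Of 4 red blood cell genes 2 fell, and Hba-a2 fell from 134, 290.4 and 237 to 73.8, 69.9 and 42.7 TPM. Of 13 fibroblast markers 7 fell and 2 rose (median -0.81). The 2 that rose were Dpt (dermatopontin, 4.65, 5.93 and 5.99 and 63.8, 83.8 and 59.1 TPM) and C3 (complement, 366, 350.2 and 345 and 1622, 1514 and 1759.9 TPM), while Pdgfra and Col3a1 did not pass.

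Gastric-type genes were lower almost throughout. All 6 gastrokine and trefoil factor genes fell (median -6.53), and of 17 other gastric and mucosal genes 12 fell and 3 rose (median -2.64). Summed gastrokines and trefoil factors came to 2204, 1942 and 1508 TPM in WT and 68.9, 64.9 and 106 TPM in Usp22-KOA. Tff2, a trefoil factor of mucous neck cells, stood at 752, 773 and 598 and 65.1, 48.4 and 90.3 TPM, and Pgc, the gastric protease precursor, at 35.6, 34.8 and 34.4 and 0.0764, 0.148 and 0.0802 TPM. Muc1, a mucin of the cell surface, fell from 610.0, 577 and 624 to 52.4, 51.1 and 45.2 TPM (-3.58 ± 0.07). Dmbt1, a mucosal scavenger protein and the most abundant of the list, changed little by comparison, with 2182, 1852 and 2072 and 1565, 1433 and 1845 TPM (-0.34 ± 0.10, adjusted p = 0.029).

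Junction genes fell, with claudins on both sides. Of 10 adherens junction and desmosome genes 9 fell (median -1.79), and of 13 tight junction genes 11 fell and 2 rose (median -1.40). Cdh1 (E-cadherin) stood at 389.7, 400.0 and 409.9 TPM in WT and 279, 274 and 289 TPM in Usp22-KOA and so kept most of its level, while Cdh3 (P-cadherin) stood at 18.8, 22 and 19.4 and 0.245, 0.215 and 0.256 TPM. Epcam, an epithelial adhesion molecule, fell by 3.37 on the log2 scale. Cldn4 fell from 42.3, 39.8 and 46.3 to 0.933, 1.54 and 0.806 TPM and Cldn7 by 2.88, but Cldn3 rose from 37.6, 29.4 and 37.7 to 206, 193 and 197 TPM, and Cldn2, which forms cation pores, by 0.26 ± 0.06. The keratins split likewise, 3 up and 3 down of 7, against 30.4% and 27.1% of all genes. Krt7, typical of ducts, fell from 903, 878 and 934 to 155, 149 and 135 TPM, Krt19 and Krt20 rose by 0.44 and 0.58, and Krt8 did not pass (2585, 2379 and 2520.2 and 2611, 2355 and 2455 TPM, overlapping).

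Genes tied to mesenchymal state did not rise as a group by counts of calls. Their summed levels, which a few abundant members can set, were higher. Of 11 structural genes 2 rose and 6 fell (median -0.73), and of 7 transcription factors 2 rose and 3 fell. Over all genes 30.4% rose and 27.1% fell. The structural genes summed to 3212, 3178 and 3577 TPM in WT and 5541, 5786 and 4843 TPM in Usp22-KOA. The factors summed to 51.2, 51.8 and 53.8 TPM in WT and 74.5, 79.3 and 75.2 TPM in Usp22-KOA. The 2 structural genes that rose were Vim (vimentin, 0.90) and S100a4 (1.87), while Cdh2 (N-cadherin) fell from 22.6, 21.9 and 19.2 to 2.73, 3.08 and 3.11 TPM. Twist1 and Twist2, a pair of related helix-loop-helix factors, moved in opposite directions: Twist1 stood at 16.2, 17.1 and 20.8 and 1.5, 1.27 and 0.916 TPM and Twist2 at 7.52, 7.01 and 4.42 and 41.6, 45.1 and 46.1 TPM. Twist2 by itself gained more TPM than the sum of the factors did, so that sum does not show a rise of the other factors. Of 19 pancreatic and endodermal transcription factors 13 fell and 2 rose (median -1.03). Gata6, a factor of the classical type of pancreatic tumor, fell by 3.76 on the log2 scale, Foxa3 by 2.75 and the ductal factor Sox9 by 1.03. Cdx2, an intestinal factor, rose from 27.4, 28.6 and 27.3 to 68.1, 61.4 and 70.6 TPM and Hnf4a by 0.34 ± 0.05, and Pdx1 and Foxa2 did not pass.

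Of 21 plasma and complement proteins known from liver 7 rose and 8 fell, against 30.4% and 27.1% of all genes. C1s1 and C1ra, which encode the proteases of the first complement component and lie next to each other, rose from 25.3, 28.3 and 27.5 to 199, 220.4 and 214 TPM and from 18, 22 and 19.1 to 119, 116 and 130.1 TPM. Cfb and C2 also rose, while the regulator Cfi fell (-7.05). Of 14 acinar enzymes 2 were tested. Cela1, an elastase, fell by 0.26 on the log2 scale, and Prss2, a trypsinogen, rose from 0.990, 1.57 and 1.28 to 40.9, 45.7 and 55.4 TPM.

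Matrix genes were mostly lower. Of 18 fibrillar collagen and crosslinking genes 11 fell and 3 rose (median -1.61), and of 16 matricellular and adhesive proteins 13 fell and 0 rose (median -1.48). Col1a1 stood at 182, 179 and 334 TPM in WT and 19.5, 15.6 and 14.2 TPM in Usp22-KOA (-3.69 ± 0.25) and Col1a2 at 145, 141 and 269.8 and 9.95, 8.71 and 5.68 TPM. Col3a1, which fibroblasts make together with collagen I, stood at 142, 137 and 255 and 167, 178 and 151 TPM (-0.05 ± 0.23, adjusted p = 0.87). WT replicate 3 was the highest WT sample in all 3 genes. Without it the list's median was -1.51, 11 genes fell, and Col3a1 stood at 0.24. The number that rose was 1 without WT replicate 1, WT replicate 2, Usp22-KOA replicate 1 or Usp22-KOA replicate 2. Fibroblast markers summed to 907, 884 and 1304 TPM in WT and 1929, 1845 and 2023 TPM in Usp22-KOA, but C3 made up most of the Usp22-KOA sum. Without C3 the sums were 540.5, 534 and 960 TPM in WT and 307, 331 and 263 TPM in Usp22-KOA. Without C3 and the 3 collagen genes that are in both lists they were 70.9, 77.1 and 101 TPM and 110.3, 129 and 93.0 TPM, with overlapping groups. Both of these shorter sums were chosen after the values were seen. The part of fibroblasts in these falls was not tested. Postn (periostin) fell from 65.4, 63.7 and 103 to 3.71, 2.68 and 1.88 TPM.

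In the basement membrane 9 of 16 genes fell and 4 rose, against 27.1% and 30.4% of all genes. The laminin chains Lama3 and Lamb3, of epithelial basement membranes, fell by 2.64 and 2.66 on the log2 scale, the latter from 29.2, 27.4 and 32.3 to 4.09, 4.14 and 3.29 TPM. Lamb2, of other laminins, rose by 1.09 ± 0.06. Among 11 integrins, 6 fell and 4 rose: Itgb6, an epithelial activator of TGF-beta, fell by 2.08, Itgb4, of a laminin receptor, rose by 0.71 ± 0.06, and Itgb1 did not pass (384, 370.4 and 378 and 352, 379 and 375 TPM).

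Wnt genes fell at each level of the pathway. Of 6 tested ligands 6 fell (median -2.35), of 15 receptors and secreted inhibitors 12 fell and 2 rose (median -1.39), and of 5 targets 4 fell (median -1.45). Genes near 0 in Usp22-KOA could pass the filter of 1 TPM through WT alone, so these counts lean towards falls. Summed over all 14 ligands, tested or not, the level was 79.8, 76.1 and 74.6 TPM in WT and 10.5, 11.6 and 9.04 TPM in Usp22-KOA. Wnt10a, the most abundant ligand, stood at 27.2, 24.7 and 21.5 TPM in WT and 4.19, 5.12 and 3.46 TPM in Usp22-KOA, and Wnt7b at 21.2, 20.3 and 19.6 and 2.75, 3.08 and 1.63 TPM. The feedback ubiquitin ligase Rnf43 fell from 8.39, 7.75 and 7.55 to 0.932, 0.939 and 1.19 TPM and Axin2 by 1.45. The receptors Lgr4 (0.71 ± 0.14) and Lrp6 rose, while Lrp5 fell by 0.69. Of the Notch ligands and receptors 6 of 8 fell and Notch1 rose (0.73 ± 0.07).

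Of 15 targets of YAP and TEAD 13 fell and 0 rose (median -0.59). Cyr61, a matricellular protein, stood at 190.3, 171 and 191 TPM in WT and 22.3, 21.5 and 19.7 TPM in Usp22-KOA, and Ankrd1 at 66.6, 63.9 and 62.1 and 21.5, 21.5 and 20.7 TPM. The coactivators themselves differed in direction: Yap1 rose by 0.36 ± 0.05 and Wwtr1 (TAZ) fell by 1.04, and the partner Tead2 fell from 18, 21.9 and 18.1 to 2.06, 2.12 and 0.959 TPM. Of the TGF-beta ligands and receptors 4 of 15 rose and 5 fell, against 30.4% and 27.1% of all genes. Gdf15, a stress-induced member of the family, rose from 8.17, 7.55 and 8.1 to 51.7, 52.7 and 42.8 TPM. The inhibitory Smad7 fell by 1.17 on the log2 scale.

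Growth factor receptors were mostly lower: 7 of 9 fell and Met rose (0.51 ± 0.06). Egfr stood at 19.6, 16.8 and 17.8 TPM in WT and 3.96, 3.87 and 5.28 TPM in Usp22-KOA and Fgfr2 at 7.71, 7.27 and 6.13 and 0.153, 0.106 and 0.130 TPM. Of the EGFR ligands Btc (-1.94), Areg (-0.98), Hbegf (-0.69) and Nrg1 fell and Ereg (1.36 ± 0.10) and Tgfa rose. Of 15 feedback genes of the RAS and ERK pathway 8 fell and 1 rose, with Dusp4 at 52.2, 46.4 and 63.2 and 17.3, 19.9 and 15.6 TPM, while Dusp6 and Spry1 did not pass. Of 13 oncogenes and tumor suppressors of pancreatic cancer 3 rose and 5 fell, against 30.4% and 27.1% of all genes. The suppressor Rb1 rose by 0.39 ± 0.11, while Cdkn2a fell from 523, 503 and 476 to 264, 258 and 281 TPM and Smad4 by 0.43.

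In energy metabolism 14 of 19 glycolytic genes fell and 3 rose (median -0.41), and 9 of 15 other hypoxia response genes fell and 1 rose. Car9, a carbonic anhydrase, stood at 79, 73.3 and 78.6 and 12.3, 14.1 and 19.3 TPM and Adm (adrenomedullin) at 26.7, 23.5 and 22.4 and 0.306, 0.892 and 0.534 TPM. Hexokinases parted, with Hk2 lower (-0.95) and Hk1 higher (0.59 ± 0.05). Of 20 sterol synthesis genes 15 fell and 3 rose (median -0.56). Their regulator Srebf2 fell from 90.3, 87.1 and 91.5 to 53, 53.3 and 52.8 TPM. In fatty acid desaturation Fads1 and Fads2 fell by 1.94 and 2.20 and Scd2 by 1.15, and Scd1 rose by 1.46 ± 0.07. The antioxidant genes Gpx2 (143, 123 and 114 and 2.69, 2.62 and 2.95 TPM) and Gsta3 fell, while 9 of 18 genes of that list rose, Srxn1 (1.46 ± 0.06) and Nqo1 among them. Of 15 genes of the ATF4 response 9 rose and 4 fell, against 30.4% and 27.1% of all genes. Asns was higher by 1.53 ± 0.13 and Phgdh lower by 0.82.

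Several stress and growth lists moved both ways, and so did all tested genes, of which 30.4% rose and 27.1% fell. Of 16 p53 targets 5 rose and 6 fell, with Mdm2 higher (0.45 ± 0.09) and the cell cycle inhibitor Cdkn1a lower (-0.69 ± 0.15). Of 16 immediate early factors 7 rose and 2 fell, with Fos at 168, 179 and 182 TPM in WT and 281, 257 and 215 TPM in Usp22-KOA and Egr1 not passing. The growth factor response gene Myc fell (-0.59 ± 0.08). Of 11 G1 regulators 7 fell and 2 rose, with cyclin D1 (Ccnd1) at 168, 165 and 158 and 113, 129 and 111 TPM. The groups did not overlap for Fos or Ccnd1. Of 14 NF-kB genes 2 rose and 2 fell, and of 16 endoplasmic reticulum chaperone and sensor genes 7 rose and 4 fell, with the chaperone Hspa5 higher (0.33 ± 0.08). In prostaglandin synthesis Ptgs1, a cyclooxygenase, rose from 20.5, 21 and 20.2 to 149, 157 and 168 TPM, while its inducible relative Ptgs2 stood at 61.6, 55.8 and 62.2 and 57.5, 60.3 and 37.7 TPM with overlapping groups.

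**Figure D4:**
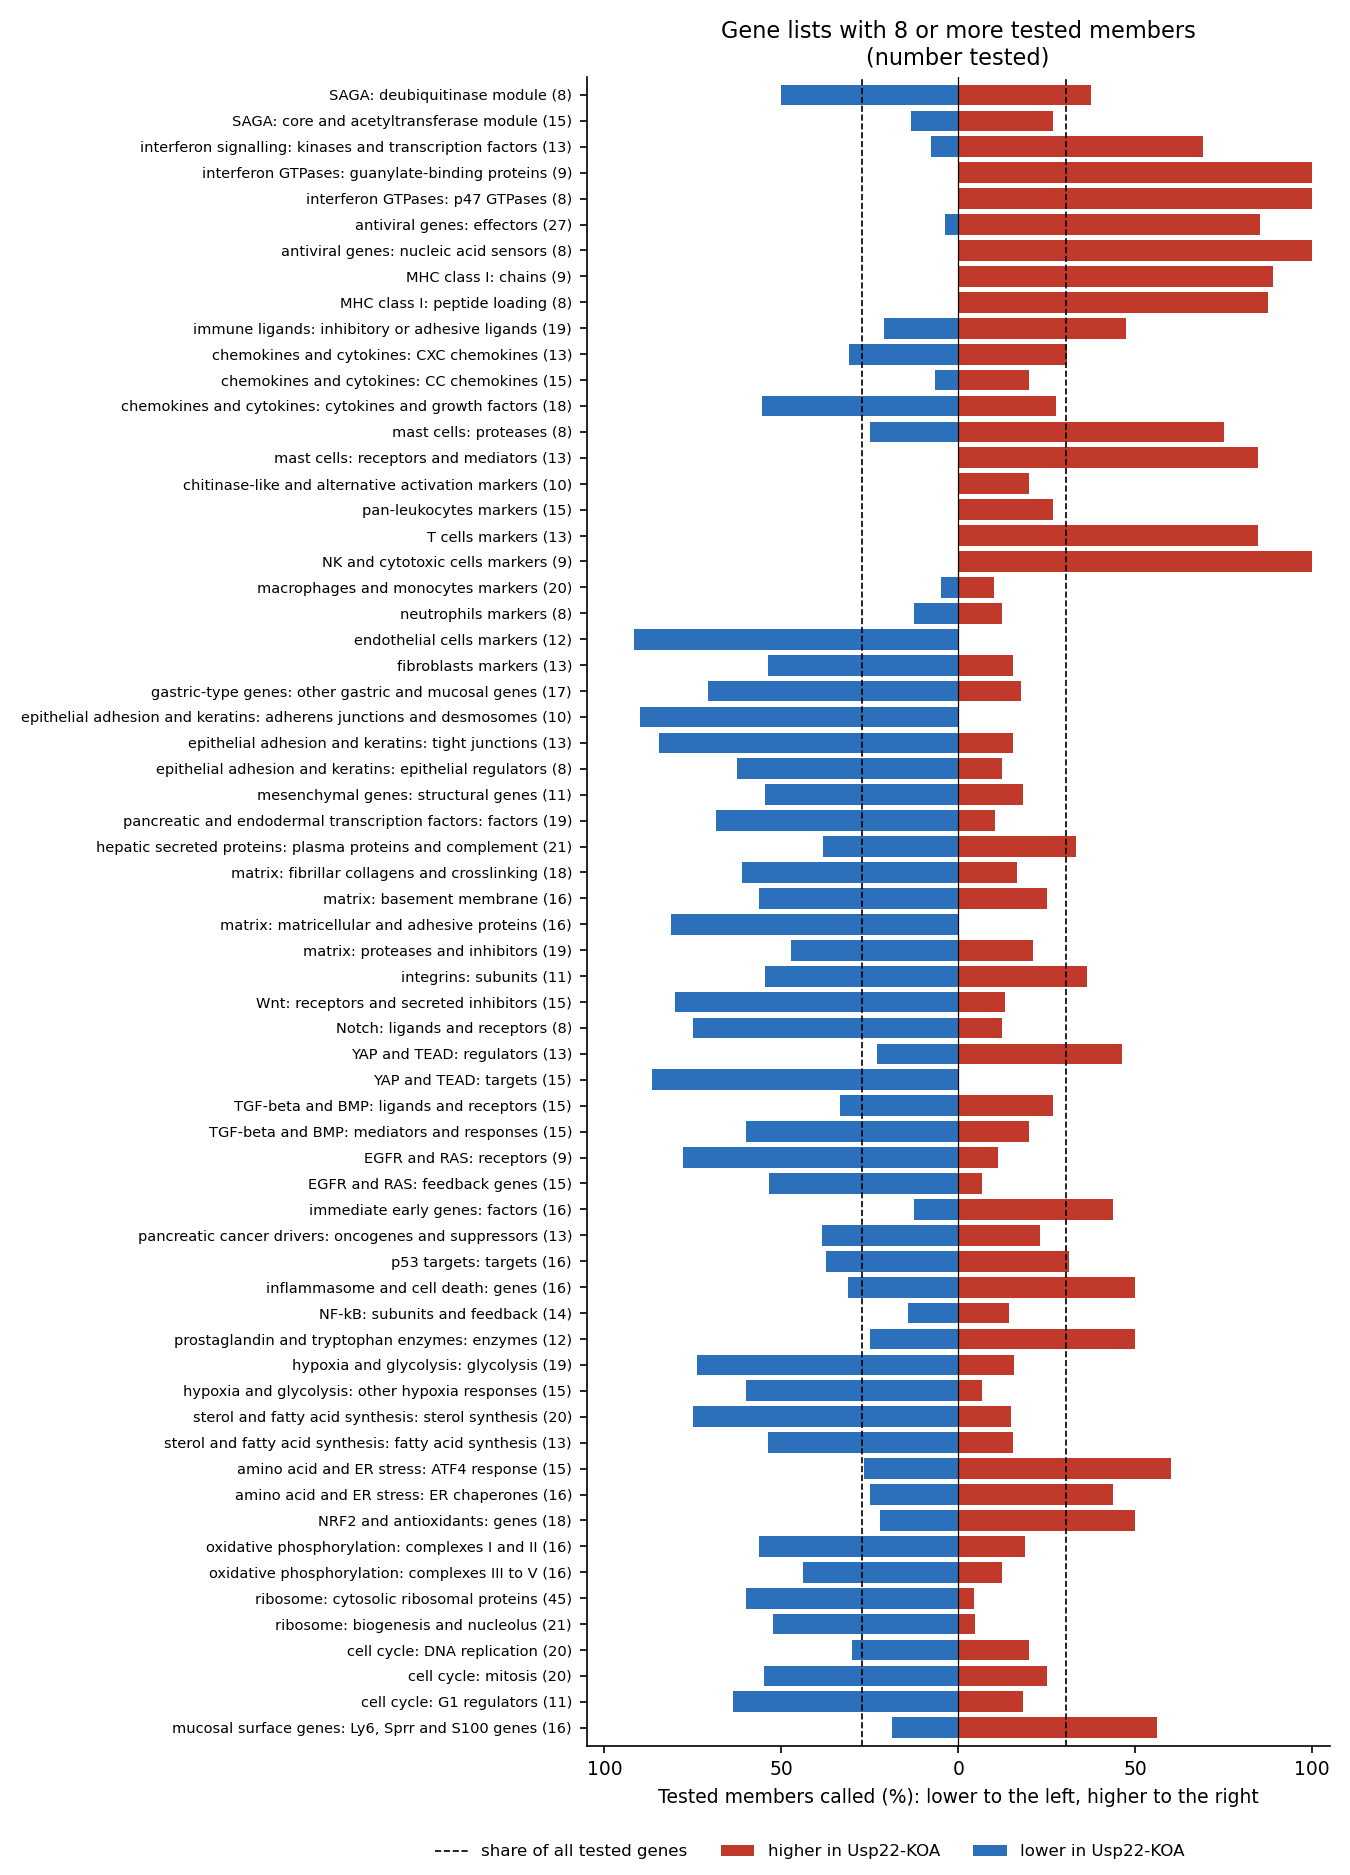
For each gene list with 8 or more tested members, bars give the percentage of tested members called higher (red, to the right) and lower (blue, to the left), with the number tested in brackets. Dashed lines mark the shares among all tested genes, 30.4% higher and 27.1% lower. Interferon GTPases reach 100% higher, and endothelial, desmosome and YAP target lists have 0 members higher.

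Position on the genome was a further axis of difference. On 12 chromosomes the median log2 difference was between 0.05 and 0.16. It was negative on 6 chromosomes: -0.32 on chromosome 1, -0.30 on chromosomes 7 and 19, -0.25 on 15, -0.23 on 18 and -0.20 on 3. On chromosomes 16 and X it was 0.35 and 0.31. On chromosome 1, 51.9% of tested genes fell and 10.9% rose, and on chromosome 16, 13% fell and 56.3% rose, against 27.1% and 30.4% over all genes. This grouping of chromosomes was made after the values were seen and is a description with no test.

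The shift was alike in all 3 Usp22-KOA libraries. On chromosome 1 the medians of the Usp22-KOA samples, as deviations from the WT mean, were -0.34, -0.32 and -0.32, against 0.03, 0.02 and -0.05 in the WT samples. On chromosome 7 they were -0.29, -0.29 and -0.29, and on chromosome 16 they were 0.32, 0.34 and 0.38. On every chromosome the 3 Usp22-KOA medians lay on 1 side of all WT medians, by the least on chromosome 14. Usp22-KOA replicate 3, which stood apart in immune genes, lay with the other Usp22-KOA samples, with a smaller fall on chromosome 3 (-0.15 against -0.21 and -0.21).

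**Figure D5:**
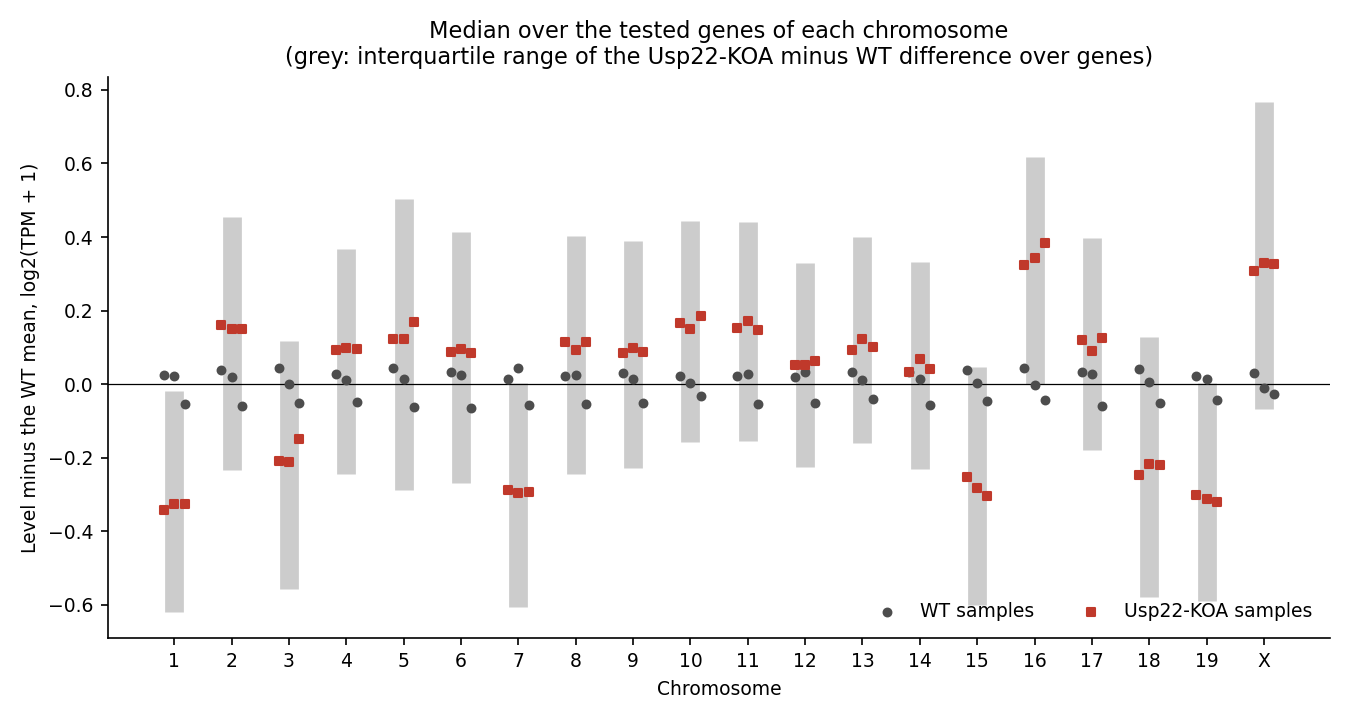
For each chromosome the points are the median over its tested genes of the level in 1 sample minus the WT mean, in log2(TPM + 1), for WT (grey) and Usp22-KOA (red) samples. Grey bars span the quartiles of the Usp22-KOA minus WT difference. Chromosomes 1, 3, 7, 15, 18 and 19 lie below WT in all 3 Usp22-KOA samples, and 16 and X above.

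Along some chromosomes the shift was even and along others it was not. When each chromosome was divided into 6 runs of equal gene number, the runs of chromosome 1 had medians of -0.27 to -0.36, those of chromosome 7 -0.24 to -0.37, those of chromosome 19 -0.24 to -0.38 and those of chromosome 16 0.30 to 0.45. Chromosome X changed near its middle: the first 3 runs were at 0.04, 0.13 and 0.12 and the last 3, from position 93764607 on, at 0.67, 0.62 and 0.70. Chromosome 18 also changed, from -0.04, -0.07 and 0.04 to -0.34, -0.56 and -0.43. On chromosome 5 the first run (3236431 to 33652574) was at -0.38, with 91 of 147 genes lower, the second at 0.05, and the last 4 runs were between 0.18 and 0.28. The first pair of runs of chromosome 2 was at 0.32 and 0.37 and the next pair at 0.03. In windows of 50 neighbouring genes the extremes were -0.64 on chromosome 5 (8490334 to 24440950, from Rundc3b to Slc4a2) and 0.75 on chromosome X (150983141 to 166190512, from Gnl3l to Gemin8). DNA copy number was not analysed here, and the cause of the shift was not tested.

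On the X chromosome, Xist, the RNA that coats the inactive X, stood at 233, 214 and 184 TPM in WT and at 84.4, 107 and 159 TPM in Usp22-KOA, a log2 difference of -0.88 (adjusted p = 0.013). The Usp22-KOA samples were spread widely and all lay below WT.

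The 6 chromosomes with a negative median held 28.6% of the 13590 tested genes with a position, 50.7% of the genes that fell and 39.1% of those that fell by at least 2-fold. They held 12% of the genes that rose. These chromosomes were picked by their medians, so an excess of falls on them is partly built in. Of their genes 48.1% fell, against 19.3% on the 12 other chromosomes. By at least 2-fold the shares were 11.7% and 7.39%, so position went less with the large falls than with the small ones.

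Gene lists of housekeeping functions split along these lines. A lower level on the low chromosomes is partly built in, since the classes were formed from the same differences. Of the 45 ribosomal protein genes 27 fell and 2 rose (median -0.20). The 18 on the 6 low chromosomes had a median of -0.54, and 16 fell. The 25 on the 12 other chromosomes had a median of -0.12, and 11 fell. The 2 on chromosomes 16 and X, Rpl24 and Rps4x, were the ones that rose. Rpl27a (chromosome 7) stood at 1199, 1266 and 1221 TPM in WT and 723, 699 and 689 TPM in Usp22-KOA, Rplp1 (chromosome 9) at 6733, 6493 and 7687 and 6756, 6945 and 6667 TPM and Rps4x (chromosome X) at 1032, 1073 and 1083 and 1926, 2013 and 1913 TPM. The groups were apart for the first and the last and overlapped for Rplp1.

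Genes of respiration did the same. In complexes III to V, 7 of 16 genes fell. Of these, 5 were on the low chromosomes, where 5 of 5 fell (median -0.73), and on the 12 other chromosomes 2 of 10 fell and 1 rose (median -0.02). In complexes I and II, 7 of 8 genes on low chromosomes fell (median -0.50), and 2 of 7 on the other chromosomes (median 0.12). Atp5a1, the alpha subunit of ATP synthase (chromosome 18), stood at 552, 579 and 528 and 344, 329.6 and 326 TPM, and Cox4i1, of complex IV (chromosome 8), at 1243, 1319 and 1320.4 and 1330.2, 1259 and 1299 TPM with overlapping groups. Of 21 ribosome biogenesis genes 11 fell, with medians of -0.63 on 8 genes of low chromosomes and -0.13 on 12 of the others. Npm1 (nucleophosmin, chromosome 11) fell all the same, from 835, 849 and 803 to 477, 498 and 480.3 TPM.

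The cell cycle lists also differed by position. Of 20 mitosis genes 11 fell and 5 rose, and on the low chromosomes 6 of 7 fell (median -0.51), while on the other chromosomes 5 of 13 fell and 5 rose (median 0.09). The proliferation marker Mki67 (chromosome 7) fell from 26.5, 30.9 and 24.7 to 15.5, 16.8 and 16.4 TPM, whereas Top2a, Cdk1 and Aurka, which lie on other chromosomes, rose, and Ube2c did not pass (0.09 ± 0.06). Of 20 DNA replication genes 4 rose and 6 fell, against 30.4% and 27.1% of all genes. Among them Mcm6 (chromosome 1) was lower by 0.92 and Rrm2 (chromosome 12) higher by 1.05 ± 0.07. By contrast sterol synthesis had like medians in both classes (-0.73 for 5 genes and -0.56 for 14), as did glycolysis (-0.33 for 4 genes and -0.44 for 13). Membership of a chromosome class is not independent of the calls, since the classes were formed from the same differences.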

How the data were processed

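RNA-seq of polyA RNA was made by the submitters in 3 WT and 3 Usp22-KOA samples. The deposited table holds TPM values by gene. The submitters' processing notes name Salmon, DESeq2 and mm10, with no role or version, and name no annotation. A gene was kept where its TPM averaged 1 or more across the 6 samples, and log2(TPM + 1) was fitted in limma 3.58.1 (R 4.3.3) with a mean-variance trend and no block. Calls had a Benjamini-Hochberg adjusted p under 0.05 over all 13819 genes. The fit was also run on simulated data with independent noise, which cannot show whether the real replicates are independent. Replicate numbers are shared by the groups, but same-numbered samples did not deviate together (correlations of -0.08, 0.06 and 0.008). Positions are from GENCODE M21 (GRCm38), and promoters from RefSeq (GRCm38.p6), on which windows of 250 bases were searched. The genes and gene lists were chosen with earlier results of these data known. Genes named were drawn from the 15 largest rises and falls, the 10 largest gains and losses in TPM, genes at 0 in 1 group, and members of the lists. The chromosome classes, the members singled out, and Xist were chosen after their values were seen. Alternatives were other pseudocounts, filters, scalings and limma settings, all 9 samples, a replicate block and each sample left out. Samples of the other knockout entered only the fit of all 9.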

Additional observations from a re-analysis of the deposited data

How the results depend on the processing

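TPM keeps no read depth, so low genes cannot be given a counting error, and 3 samples a group limit the precision. The total of 7938 calls ranged from 6675 (mean of at least 5 TPM) to 8604 (no filter). With the replicate number as a block it was 7088, and the numbers do not pair the samples. Genes called and at least 2-fold apart numbered 481 higher and 607 lower with a pseudocount of 5, and 697 lower with a mean of at least 5 TPM. Without a filter 10 chromosomes had a negative median, and 6 in every other alternative.

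Among named genes the following changed sign, and the cause was not tested. All but Rps27rt had not passed. With quantile normalization, Rps27rt stood at 0.16, Krt8 0.064, Prom1 -0.12, Prdx1 -0.083, Cox4i1 -0.044, Rplp1 0.087, Ube2c -0.026 and S100a6 0.0060. Rescaled without Mir6236, Prom1 stood at -0.013 and Cox4i1 -0.020. With array weights, Socs3 stood at 0.053, Prom1 -0.018, Col3a1 0.058 and Cox4i1 -0.0038. With 1 sample left out at a time, values ranged from -0.052 to 0.022 for Krt8, -0.027 to 0.023 for Cox4i1, -0.12 to 0.14 for Socs3, -0.041 to 0.034 for Prom1, -0.38 to 0.62 for Ear2, -0.27 to 0.60 for Jchain, -0.21 to 0.24 for Col3a1, -0.084 to 0.038 for Rplp1, -0.00035 to 0.38 for Cd3d and -0.60 to 0.086 for Apoe.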
